A study of Populus tremula x Populus alba with 4 samples.

Results

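Phenylalanine ammonia-lyase (PAL) and cinnamate 4-hydroxylase (C4H) catalyse the opening steps of the phenylpropanoid pathway. The 8 genes described here are the 5 poplar PAL genes and the 3 poplar C4H genes, chosen by enzyme and not by measured values. All 8 of these IDs were found among the 41335 transcript IDs of the files, with 1 transcript per gene, and all 8 passed the filter on low counts. The files pair no ID with a gene name or a position, so each gene is given by its ID and its enzyme.

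Bark RNA was sequenced in paired-end mode from 2 groups of a hybrid poplar, Populus tremula x Populus alba, represented by clone INRA 717-1B4, which is widely used for transformation. The groups were 2 samples of MIR15 transgenic plants and 2 samples of wild-type (WT) plants, described by the labels as biological replicates. Both genotypes were started in sterile culture, with kanamycin added where needed, and then grown in soil in a growth chamber under the same temperature and light. The sources used here give no plant age, no promoter for the MIR15 construct and no target of it, and leave unstated whether the MIR15 replicates are separate transgenic lines and whether plants were pooled. Replicates are numbered as in the sample titles, although the deposited MIR15 columns carry other numbers, and p-values measure only the spread between these samples.

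PAL removes the amino group of phenylalanine and releases cinnamate. C4H, a cytochrome P450 enzyme, hydroxylates cinnamate to p-coumarate. In woody stems these products feed lignin, flavonoids, condensed tannins and other phenolics, so both steps stand ahead of the branches of the pathway. In poplar both enzymes are encoded by small families whose members differ in where they are expressed.

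Libraries held between 68453851 and 82789893 total gene reads, of which 5.29% to 6.46% matched more than 1 place. Every pair of libraries differed by more than sampling noise, with a chi-square per degree of freedom between 60.4 and 126 over 20099 genes, and all 4 were kept as separate samples. Levels are given in CPM, the gene's reads scaled to the library total after TMM adjustment. Gene lengths are not in the files, so CPM and shares of reads are not divided by length, and orders between genes below are orders of read counts, not of transcripts.

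PAL reads came mainly from a pair of genes. Potri.006G126800.1 had 2343 and 2425 CPM in the MIR15 libraries (replicates 1 and 2, in that order throughout), against 2604 and 1639 CPM in the WT libraries. It ranked 4 among all 41335 genes by mean CPM, with 157682 and 169824 reads in MIR15 and 214550 and 128562 reads in WT. The MIR15 libraries lay close together and between the WT libraries, which stood at the top and the bottom.

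Potri.016G091100.1, the PAL gene with the next highest read count, had 757 and 759 CPM in MIR15 and 925 and 424 CPM in WT. It ranked 62 by mean CPM. Its MIR15 libraries differed by less than the counting error, with a replicate 1 to replicate 2 ratio of 0.997 and an exact 95% counting interval from 0.985 to 1.01. The WT libraries differed 2.18-fold (2.15 to 2.21).

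Potri.008G038200.1, the third PAL gene by reads, had 157 and 173 CPM in MIR15 and 218 and 140 CPM in WT. Here too the MIR15 values fell between those of the WT libraries. The remaining PAL genes carried few reads. Potri.010G224100.1 had 27.4 and 23.4 CPM in MIR15 and 31.6 and 21.8 CPM in WT. Potri.010G224200.1 had 9.63 and 7.55 CPM in MIR15 and 10.8 and 8.48 CPM in WT, and in this gene MIR15 replicate 2 was the lowest library.

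C4H reads were divided almost evenly between Potri.019G130700.1 and Potri.013G157900.1. Potri.019G130700.1 had 204 and 179 CPM in MIR15 and 195 and 161 CPM in WT. Potri.013G157900.1 had 165 and 146 CPM in MIR15 and 157 and 146 CPM in WT. In both, MIR15 replicate 1 was highest. WT replicate 2 was lowest for Potri.019G130700.1. For Potri.013G157900.1, WT replicate 2 (146.275 CPM) and MIR15 replicate 2 (146.35 CPM) were practically level. The other C4H gene, Potri.018G146100.1, was low, at 3.91 and 2.93 CPM in MIR15 and 3.79 and 4.36 CPM in WT, from 205 to 342 reads per library. It was the one gene of the 8 in which WT replicate 2 was the highest library.

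**Figure D1:**
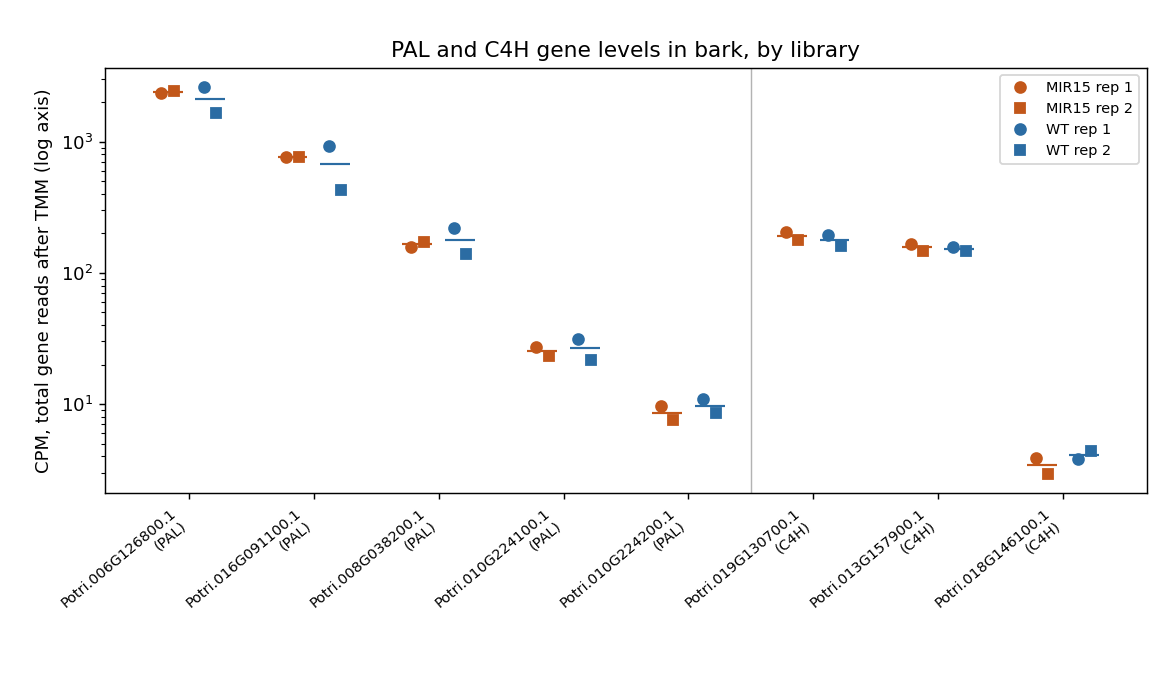
Level of each PAL gene (left of the grey line) and C4H gene (right) in CPM after TMM, on a log axis, for MIR15 (orange) and WT (blue) libraries, with circles for replicate 1, squares for replicate 2 and short lines for group means (n = 2 each). In no gene do the MIR15 libraries lie wholly above or below the WT libraries, and the widest gap within a genotype is that of the WT libraries for Potri.016G091100.1.

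By mean CPM the order was Potri.006G126800.1, Potri.016G091100.1, Potri.019G130700.1, Potri.008G038200.1, Potri.013G157900.1, Potri.010G224100.1, Potri.010G224200.1 and Potri.018G146100.1. Of the 7 pairs of neighbours in this order, 5 had ranges over the 4 libraries that did not overlap, and their mean ratios ran from 2.44 for Potri.010G224200.1 over Potri.018G146100.1 to 5.91 for Potri.013G157900.1 over Potri.010G224100.1. In the middle, Potri.008G038200.1 had no fixed place. Potri.019G130700.1 exceeded Potri.008G038200.1 in 3 of 4 libraries, and Potri.008G038200.1 exceeded Potri.013G157900.1 in 2 of 4. Potri.019G130700.1 had more reads than Potri.013G157900.1 in all 4 libraries, by 1.23 and 1.22 to 1 in MIR15 and by 1.24 and 1.10 to 1 in WT.

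The same gene took the largest share of PAL reads in all 4 libraries. Potri.006G126800.1 gave 71.1% and 71.6% of PAL reads in MIR15, against 68.7% and 73.4% in WT. Potri.016G091100.1 gave 23.0% and 22.4% in MIR15, against 24.4% and 18.99% in WT. The ratio of Potri.006G126800.1 reads to Potri.016G091100.1 reads was 3.09 and 3.19 in MIR15, between the WT ratios of 2.81 and 3.86.

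Potri.008G038200.1 gave 4.77% and 5.10% of PAL reads in MIR15, against 5.74% and 6.28% in WT. Its exact 95% counting intervals were 4.68% to 4.86% and 5.01% to 5.19% in MIR15 and 5.66% to 5.83% and 6.16% to 6.39% in WT. The MIR15 libraries thus lay below the WT libraries beyond counting error, but the replicates of each genotype also differed beyond it. These intervals do not measure the spread between samples. With 2 libraries each, the exact two-sided permutation test cannot go below 0.333, and it gave p = 0.333 for the difference of -1.08 percentage points. Potri.010G224100.1 gave 0.831% and 0.690% of PAL reads in MIR15 and 0.833% and 0.974% in WT. These groups also did not overlap, but MIR15 replicate 1 and WT replicate 1 differed by less than their counting error (0.794% to 0.870% against 0.802% to 0.866%). Potri.010G224200.1 gave 0.292% and 0.223% in MIR15 and 0.286% and 0.380% in WT, which overlapped.

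Of C4H reads, Potri.019G130700.1 gave 54.6% and 54.5% in MIR15, against 54.8% and 51.7% in WT. Potri.013G157900.1 gave 44.3% and 44.6% in MIR15, against 44.1% and 46.9% in WT. For each of these genes, 3 libraries agreed within counting error and WT replicate 2 stood apart. Potri.018G146100.1 gave 1.05% and 0.892% in MIR15, against 1.06% and 1.40% in WT. These groups did not overlap, but MIR15 replicate 1 lay within the counting interval of WT replicate 1 (0.949% to 1.19%). Over the 8 shares tested, the Benjamini-Hochberg adjusted value of the exact permutation test was 0.889 at the lowest.

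**Figure D2:**
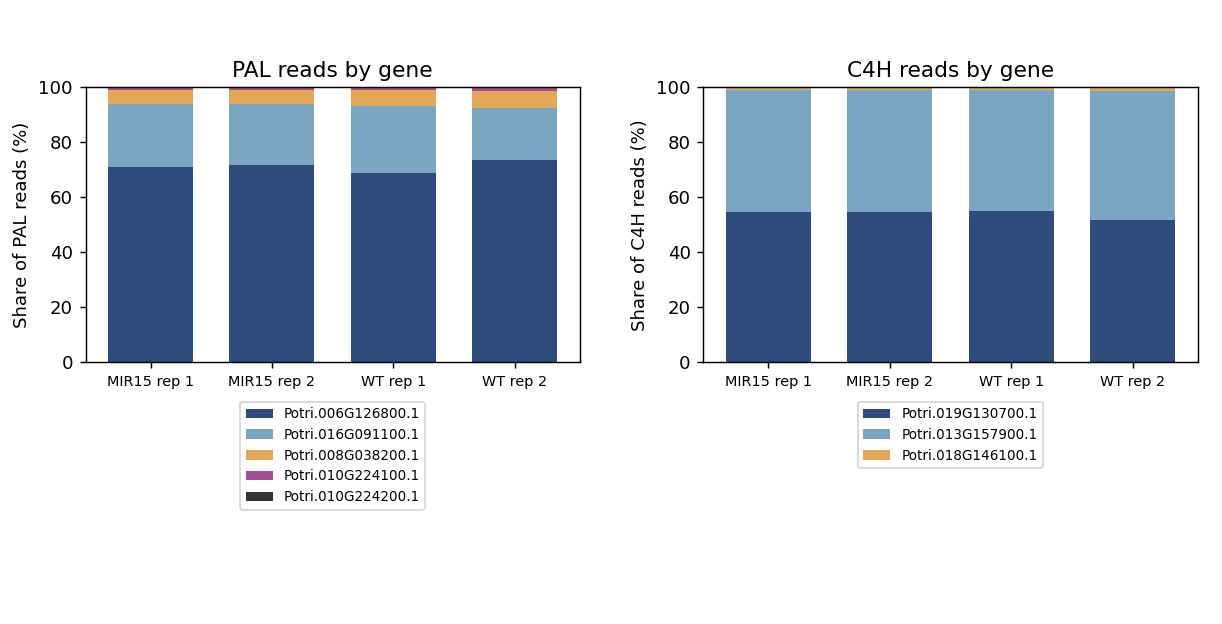
Share of PAL reads (left) and of C4H reads (right) taken by each gene, in percent, in each MIR15 and WT library; reads are not divided by gene length. Potri.006G126800.1 takes 68.7% to 73.4% of PAL reads, and Potri.019G130700.1 and Potri.013G157900.1 together take nearly all C4H reads in every library.

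Reads that match more than 1 place affected only one PAL pair among the members. Of the reads of Potri.010G224100.1, 21.5% matched more than 1 place, and of those of Potri.010G224200.1, 22.7%. The other 6 members had less than 0.1% of such reads, from 0.0207% to 0.0930%, beside a median of 0.0361% over the 30975 tested genes. In unique reads, Potri.010G224100.1 outnumbered Potri.010G224200.1 by 2.92 and 3.16 to 1 in MIR15 and by 2.92 and 2.62 to 1 in WT. The reads of this pair that matched more than 1 place were divided in ratios of 2.60 and 2.88 in MIR15 and 2.89 and 2.39 in WT. The labels and headers do not state how such reads were placed. The single totals of these genes are therefore less certain than their order in unique reads, which was the same in all 4 libraries. The reads that matched more than 1 place had that order too, but it may follow from how they were placed and is not separate evidence.

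Summed over the 5 genes, PAL stood at 3295 and 3388 CPM in MIR15 and at 3789 and 2234 CPM in WT. The means were 3341 ± 65.7 CPM in MIR15 and 3011 ± 1099 CPM in WT (SD, n = 2 each). PAL took 0.324% and 0.340% of all reads in MIR15 and 0.377% and 0.227% in WT. The log2 ratio of MIR15 over WT was 0.20, with an exact permutation p of 1.00, because both MIR15 libraries lay inside the WT range. It was 0.58 without WT replicate 1 and -0.18 without WT replicate 2, so its direction depended on which WT library was kept.

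C4H summed to 373 and 328 CPM in MIR15 and to 356 and 312 CPM in WT, or 351 ± 31.8 CPM and 334 ± 31.5 CPM (SD, n = 2 each). The log2 ratio of MIR15 over WT was 0.07 (exact permutation p = 0.667). It was -0.03 without WT replicate 2 and -0.02 without MIR15 replicate 1.

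For each C4H read there were 8.83 and 10.3 PAL reads in MIR15, against 10.6 and 7.17 in WT. The groups overlapped (exact permutation p = 1.00). Over the 6 sums and ratios tested in this way, every Benjamini-Hochberg adjusted value was 1.00.

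**Figure D3:**
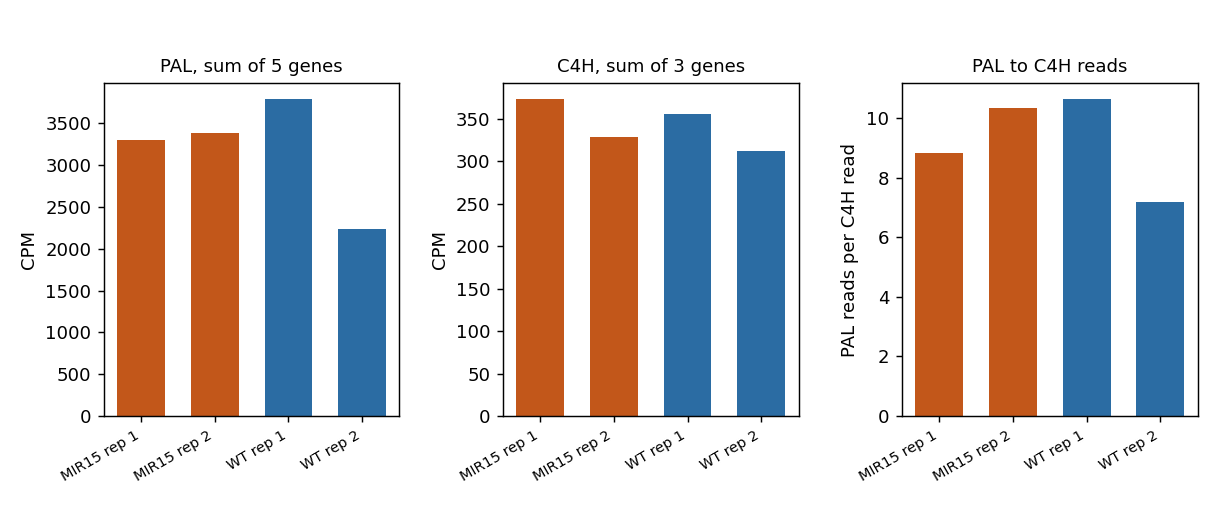
Summed level of the 5 PAL genes and of the 3 C4H genes in CPM after TMM, and PAL reads per C4H read, with 1 bar for each MIR15 (orange) and WT (blue) library. PAL spans 2234 to 3789 CPM within WT, while C4H stays between 312 and 373 CPM in all 4 libraries.

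The spread between replicates was uneven, wide for PAL in WT and small for PAL in MIR15. The PAL sum was 1.70-fold higher in WT replicate 1 than in WT replicate 2, a larger difference than 95.7% of the 20099 genes averaging 5 CPM or more showed between these libraries. All 5 PAL genes were higher in WT replicate 1. The ratios were 1.59 for Potri.006G126800.1, 2.18 for Potri.016G091100.1, 1.55 for Potri.008G038200.1, 1.45 for Potri.010G224100.1 and 1.28 for Potri.010G224200.1. Among all genes of that level the median difference between the WT libraries was 1.13-fold, and the 90th percentile was 1.44-fold.

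Between the MIR15 libraries the PAL sum differed little, with a replicate 1 to replicate 2 ratio of 0.973 (counting interval 0.967 to 0.978), and 11.4% of genes differed less. The C4H sum had a ratio of 1.14 in MIR15 and of 1.14 in WT, close to the median difference of 1.14-fold and 1.13-fold over genes in each genotype. Counting error did not cover the replicate difference in 7 of 8 members in either genotype. The exceptions were Potri.016G091100.1 in MIR15 and Potri.018G146100.1 in WT, where the ratio was 0.868 (0.742 to 1.02). Over 20099 genes together, the chi-square per degree of freedom was 82.2 between the MIR15 libraries and 114 between the WT libraries. Differences beyond counting error were thus not confined to the members, and the share of all genes with them was not computed.

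The sums of other gene lists of the stem are given beside PAL. The 15 later monolignol genes, a list of the steps after C4H, summed to 1479 and 1340 CPM in MIR15 and to 1561 and 1305 CPM in WT. The 5 secondary wall cellulose synthase genes on the list, which mark xylem and fibre cells, summed to 498.8 and 511 CPM in MIR15 and to 577 and 407 CPM in WT. All 5 were detected, between 27.04 and 186 CPM in single libraries, and Potri.002G257900.1 was the highest at a mean of 160 CPM. Whether the bark samples held different amounts of xylem and fibre cells, or of the other cell types of bark, was not tested. Fewer cells of a type and less RNA per cell cannot be told apart in bulk tissue. The marker lists of phloem, periderm and green tissue were written as gene names and could not be filled, so the tissue label was not checked against them.

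No change of a PAL or C4H gene in MIR15 bark passed the test. In edgeR's quasi-likelihood test over all genes, 0 of 8 members passed an adjusted p under 0.05 and 0 had an unadjusted p under 0.05; DESeq2 also called 0, with 0 at an unadjusted p under 0.05. Over all 30975 tested genes, 1 gene or 0.00323% was called, and 2.47% had an unadjusted p under 0.05. In 0 of 8 members did the MIR15 libraries stand wholly above or below the WT libraries, beside 25.1% of all tested genes. The log2 fold changes were above 0 in 4 members and below 0 in 4, with a median of -0.02, beside a median of -0.000805 and a share of 49.8% above 0 over all tested genes.

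The PAL gene with the most reads, Potri.006G126800.1, averaged 2384 ± 57.5 CPM in MIR15 and 2121 ± 682 CPM in WT (SD, n = 2 each). Its log2 fold change was 0.17 ± 0.27 (SE), with a 95% interval from -0.47 to 0.80 and an edgeR adjusted p of 1.00. The interval runs from 0.724-fold to 1.74-fold. Potri.016G091100.1 averaged 758 ± 1.36 CPM in MIR15 and 675 ± 354 CPM in WT, with a log2 fold change of 0.17 ± 0.34 (edgeR adjusted p = 1.00) and the widest interval of the 8, from -0.63 to 0.97.

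The smaller PAL genes all had values below 0. Potri.008G038200.1 averaged 165 ± 11.1 CPM in MIR15 and 179 ± 54.7 CPM in WT, a log2 fold change of -0.12 ± 0.23 (-0.65 to 0.41). Potri.010G224100.1 averaged 25.4 ± 2.83 CPM in MIR15 and 26.7 ± 6.95 CPM in WT, a log2 fold change of -0.07 ± 0.21 (-0.56 to 0.42). Potri.010G224200.1 averaged 8.59 ± 1.47 CPM in MIR15 and 9.66 ± 1.68 CPM in WT, a log2 fold change of -0.17 ± 0.22 (-0.69 to 0.35). Each of these had an adjusted p of 1.00 in edgeR.

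The C4H genes with most reads had the narrowest intervals of the 8. Potri.013G157900.1 averaged 156 ± 13.5 CPM in MIR15 and 152 ± 7.66 CPM in WT, a log2 fold change of 0.04 ± 0.16 with an interval from -0.33 to 0.41, or 0.797-fold to 1.32-fold. Potri.019G130700.1 averaged 191 ± 17.7 CPM in MIR15 and 178 ± 24.2 CPM in WT, a log2 fold change of 0.10 ± 0.17 (-0.30 to 0.51). Potri.018G146100.1 averaged 3.42 ± 0.694 CPM in MIR15 and 4.07 ± 0.406 CPM in WT. Its log2 fold change of -0.25 ± 0.27 was the farthest from 0 of the 8, with an unadjusted p of 0.376 in edgeR's fit across all genes. It was -0.48 without MIR15 replicate 1 and -0.05 without MIR15 replicate 2. EdgeR's adjusted p was 1.00 for all 3 C4H genes.

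**Figure D4:**
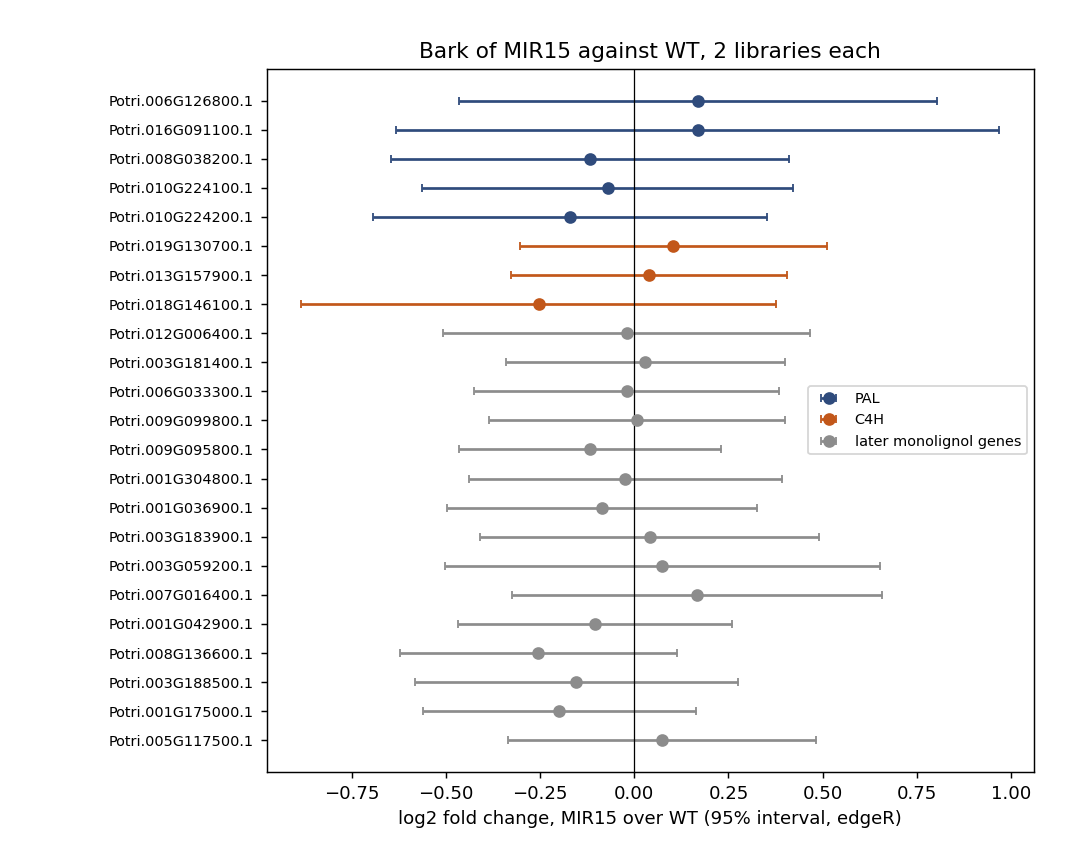
Log2 fold change of MIR15 over WT with its 95% interval from edgeR for the PAL genes (dark blue), the C4H genes (orange) and the 15 later monolignol genes (grey), n = 2 libraries per genotype. Every interval includes 0; the widest belongs to Potri.016G091100.1.

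The unique reads gave the same picture. Log2 fold changes in unique reads were 0.17 for Potri.006G126800.1, 0.17 for Potri.016G091100.1, -0.12 for Potri.008G038200.1, -0.08 for Potri.010G224100.1 and -0.20 for Potri.010G224200.1. The C4H values in unique reads were 0.04 for Potri.013G157900.1, 0.11 for Potri.019G130700.1 and -0.25 for Potri.018G146100.1. All 8 had the sign found in total reads, and edgeR's adjusted p in unique reads was 1.00 for each.

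The PAL values depended on single libraries, and those of the main genes on the WT libraries. Without WT replicate 1, Potri.016G091100.1 had a log2 fold change of 0.84 and Potri.006G126800.1 had 0.54. That fit kept 1 WT library, so only its effect sizes are given, and neither gene was called. Without WT replicate 2 the same genes had -0.29 and -0.13. Over the 8 members, 7 log2 fold changes were above 0 without WT replicate 1, and 0 were above 0 without WT replicate 2. Over all genes tested in these fits, the median log2 fold change was 0.0099 and 0.0066, in that order. The share of all genes above 0 was not computed for fits with a library left out. Leaving out MIR15 libraries moved Potri.006G126800.1 and Potri.016G091100.1 little, to between 0.15 and 0.19 on the log2 scale. Without MIR15 replicate 2, Potri.010G224100.1 turned to 0.04 and Potri.010G224200.1 was at -0.000657.

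**Figure D5:**
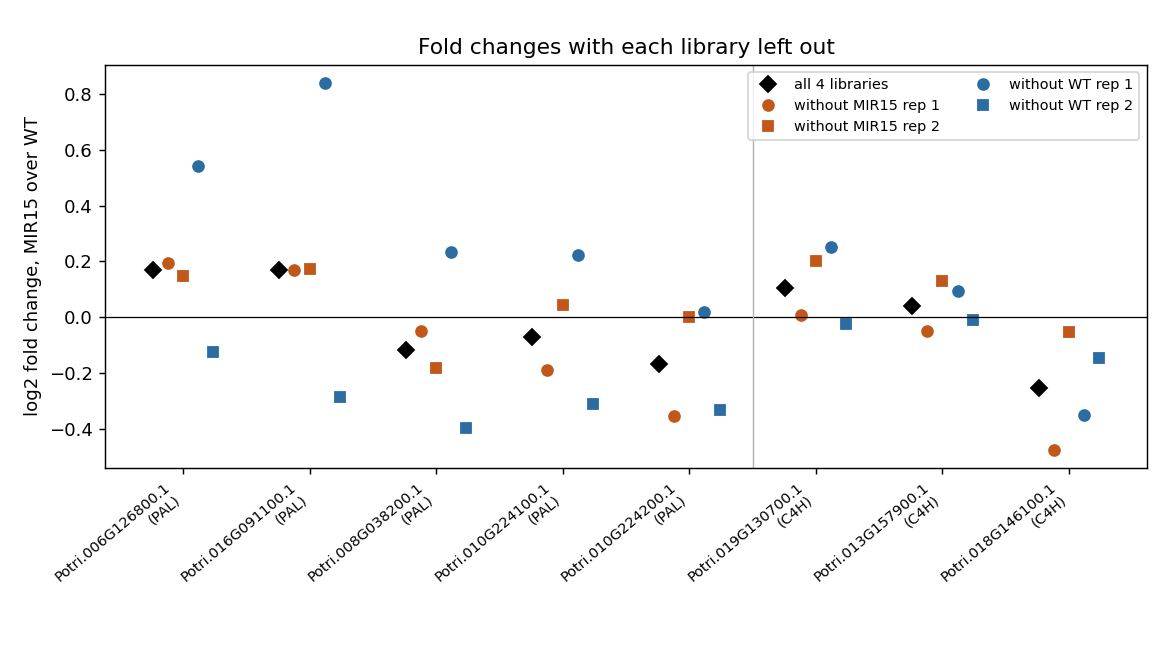
Log2 fold change of MIR15 over WT from edgeR for each PAL gene (left of the grey line) and C4H gene (right) with all 4 libraries (black diamonds) and with 1 library left out (orange, without a MIR15 library; blue, without a WT library; circles for replicate 1, squares for replicate 2). For Potri.016G091100.1 the value is 0.84 without WT replicate 1 and -0.29 without WT replicate 2.

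Along the rest of the monolignol route, 0 of the 15 later genes passed the edgeR test in either direction and 0 had an unadjusted p under 0.05; DESeq2 called 0 as well. Their log2 fold changes were above 0 in 6 and below 0 in 9, with a median of -0.02. With 1 library left out, 1 was above 0 without MIR15 replicate 1, 11 without MIR15 replicate 2, 10 without WT replicate 1 and 2 without WT replicate 2, with medians from -0.17 to 0.13. Over all genes tested in the same fits, the medians ran from -0.00874 to 0.0099, and the share above 0 was not computed. The MIR15 libraries lay wholly below the WT libraries in 3 and wholly above in 0. Over all 30975 tested genes, they lay wholly below in 3948 and wholly above in 3814, or 25.1% in either direction. The highest log2 fold change was that of Potri.007G016400.1, with 44.5 and 30.8 CPM in MIR15 and 36.9 and 30.3 CPM in WT, at 0.17 ± 0.21. The lowest was that of Potri.008G136600.1, with 17.95 and 19.3 CPM in MIR15 and 21.3 and 23.1 CPM in WT, at -0.25 ± 0.16. Both had an adjusted p of 1.00 in edgeR. Single members of this list are given by ID because their place in the pathway was not checked against an annotation.

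Some genes that are not among the 8 had nearly the same pattern over the 4 libraries. Likeness was measured as the root-mean-square distance between log2 CPM profiles, each centred on its own mean, over 20092 genes that averaged 5 CPM or more and had reads in every library. The genes nearest to the PAL sum were Potri.019G062500.1, Potri.001G351200.1 and Potri.017G102000.1, at distances of 0.0184, 0.0230 and 0.0237. Potri.019G062500.1 had 20.3 and 20.3 CPM in MIR15 and 22.5 and 13.4 CPM in WT. The genes nearest to the C4H sum were Potri.013G146200.1, Potri.006G065600.1 and Potri.001G171000.1, at distances of 0.00466, 0.00691 and 0.00750. A distance under 0.05 was reached by 24 genes for PAL and by 783 genes for C4H, of 20092. The distance is not scaled to how much a profile varies, and the C4H sum varied less over the libraries than the PAL sum. These counts therefore do not compare how distinctive the profiles are, and 4 libraries distinguish few patterns.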

How the data were processed

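Bark mRNA of 2 MIR15 and 2 WT samples was measured. Per the file headers, the authors deposited for each gene 2 counts made with CLC, of unique and of total gene reads, and a DESeq normalised signal. The submitters' processing notes name DESeq without a version. Within a library the deposited signal is a fixed multiple of the total-read count (0.898 to 1.10), so it was not tested separately. Aligner settings and genome build are not stated in the labels or headers used here.

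The test was made on total gene reads in edgeR 4.0.16 (R 4.3.3): filterByExpr, TMM, quasi-likelihood F test, two-sided, genotype as sole term, Benjamini-Hochberg adjustment over 30975 genes, threshold 0.05. The SE was derived from the F statistic and the 95% interval from its degrees of freedom. DESeq2 1.42.0 was an alternative. Sums and shares were compared by exact two-sided permutation over libraries. Counting intervals are exact binomial (Clopper-Pearson, or conditional for ratios) and cover counting error only. The fit was also run on simulated counts in which every gene was given the same spread. That run does not show how the fit performs at the spread of these libraries.

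The members were chosen by enzyme and not by measured values, but they and the lists were chosen with earlier results of these data known. The rule for named genes took all 8 members, the 3 nearest profiles to each sum, the extreme later monolignol genes and the highest gene of each marker list that could be filled. Shares had been planned per unit of length; with no lengths given, reads were used undivided. Alternatives covered scaling, filters, a replicate block, left-out libraries, unique reads and a stricter threshold.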

Additional observations from a re-analysis of the deposited data

How the results depend on the processing

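None of the members was called under the alternatives run (7 tested after the 5 CPM filter, 8 in the others), including DESeq2, unique reads and the title number as a replicate block. The number of genes called in all, 1 in the edgeR fit, was 0 when genes averaging under 5 CPM were dropped (389 genes at an unadjusted p under 0.05), 0 in unique reads (768 genes), 14 with DESeq2 (8 higher, 6 lower) and 120 with the replicate block (69 higher, 51 lower); leaving out 1 library gave 0 (without either MIR15 replicate) to 8 (without WT replicate 1). Deviations of same-numbered libraries had a correlation of 0.27, but no label gives the number a shared origin, so it was not taken to pair the samples, and the block turned no member's direction.

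The median log2 fold change of the members ran from -0.22 to 0.23 over the settings with 1 library left out, and was 0.03 after the 5 CPM filter, which drops Potri.018G146100.1. Directions turned only with left-out libraries, where the cause was not tested. Over these settings Potri.006G126800.1 ran from -0.13 to 0.54, Potri.016G091100.1 from -0.29 to 0.84, Potri.008G038200.1 from -0.40 to 0.24, Potri.010G224100.1 from -0.31 to 0.22, Potri.010G224200.1 from -0.36 to 0.01999, Potri.013G157900.1 from -0.0512 to 0.13, Potri.019G130700.1 from -0.0266 to 0.25 and Potri.018G146100.1 from -0.48 to -0.05. Where 1 library of a genotype was left, it was assumed to vary like the other genotype. Shares per unit of length were not run, because no lengths were given. Replicates differed beyond counting error in 7 of 8 members in each genotype. The libraries also did so over all genes together, but the share of single genes with such differences was not computed. Potri.018G146100.1, at 205 to 342 reads per library, had the least depth.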
